A study of Mus musculus with 30 samples.

Results

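A set of 10 genes of the choroid plexus was looked up by symbol among the 14225 transcripts of mouse microglial libraries, and 8 of the 10 had a row: Ttr, Igfbp2, Kl, Enpp2, Aqp1, Slc4a5, Kcne2 and Clic6. Folr1, a folate receptor, and Otx2, a homeobox transcription factor, had none and were not analysed here. The cells had been taken with CD11B magnetic beads from whole brains of C57BL/6J mice, and the 30 libraries fell into 10 groups of 3. Dams were injected on embryonic day 9.5 with saline (Saline) or with the viral mimic poly(I:C) (MIA). Saline and MIA offspring, of both sexes by the study's account, were sampled at E17, P7, P20 and P60. At P60 each maternal group was divided into offspring on control chow (Saline + CTRL, MIA + CTRL) and offspring that ate the CSF1R inhibitor PLX5622, which depletes microglia, from P21 to P42 and control chow afterwards (Saline + MG-REP, MIA + MG-REP). A library came from 1 litter at E17, from 3 pooled brains at P7 and from a single brain at P20 and P60, so that at P7 the values are averages over animals. No litter, sequencing batch or sex was given with the libraries. The 4 microglial markers C1qa, Csf1r, Cx3cr1 and Fcrls made up 87.6% to 99.1% of the summed TPM of the neuronal, oligodendrocyte, astrocyte, endothelial and microglial markers, and the spacing of low values put the depth at 7900000 to 12660000 reads.

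The choroid plexus is a folded epithelium around fenestrated capillaries within the brain ventricles, and it secretes most of the cerebrospinal fluid. Its epithelial cells move ions and water from blood to ventricle through transporters and channels, and they release carrier proteins and hormones, of which transthyretin is the most abundant. The tissue also holds stromal cells and its own macrophages, but its epithelium carries no CD11B. Ttr encodes transthyretin, which binds thyroid hormone and the retinol-binding protein. Igfbp2 encodes a secreted binding protein of insulin-like growth factors, Kl encodes Klotho, a co-receptor of FGF23 that is also shed into the fluid, and Enpp2 encodes autotaxin, the enzyme that makes lysophosphatidic acid. Aqp1 encodes a water channel, Slc4a5 a sodium bicarbonate cotransporter, Kcne2 an accessory subunit of potassium channels and Clic6 an intracellular chloride channel protein. Igfbp2 is also expressed by astrocytes, Aqp1 by some endothelia outside the brain, and Enpp2 by oligodendrocytes.

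The 8 genes lie on 7 chromosomes, with Kcne2 (chromosome 16, 92292389 to 92298133 in GRCm38.p6) and Clic6 (chromosome 16, 92498147 to 92541241) separated by 200 kb. Of the 8, 5 had a promoter window in the RefSeq table of that build (250 bases before to 50 bases after an annotated start), in 7 windows. Windows at the annotated gene start are shown for Kcne2 and Aqp1, the members with a match to the motif GTTGCC, and for Kl, which departed most from Ttr with age. Igfbp2 also had a window at its gene start, without a match, and it is not shown. Capitals mark matches, on either strand, to GTTGCC, a half-site of RFX factors, which are known from ciliated epithelia.
Kcne2, chr16:92292139-92292438, plus strand: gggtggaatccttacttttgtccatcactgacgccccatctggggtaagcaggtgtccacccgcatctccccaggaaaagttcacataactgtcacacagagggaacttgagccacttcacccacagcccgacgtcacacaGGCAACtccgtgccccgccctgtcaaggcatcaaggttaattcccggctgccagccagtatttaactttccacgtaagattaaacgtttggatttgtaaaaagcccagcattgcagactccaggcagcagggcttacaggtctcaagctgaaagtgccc
Aqp1, chr6:55336049-55336348, plus strand: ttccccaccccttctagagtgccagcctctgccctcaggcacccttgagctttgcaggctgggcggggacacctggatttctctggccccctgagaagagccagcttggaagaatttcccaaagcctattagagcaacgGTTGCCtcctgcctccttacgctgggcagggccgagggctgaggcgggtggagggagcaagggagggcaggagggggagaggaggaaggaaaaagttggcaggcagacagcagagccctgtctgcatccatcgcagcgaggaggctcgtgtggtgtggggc
Kl, chr5:150952357-150952656, plus strand: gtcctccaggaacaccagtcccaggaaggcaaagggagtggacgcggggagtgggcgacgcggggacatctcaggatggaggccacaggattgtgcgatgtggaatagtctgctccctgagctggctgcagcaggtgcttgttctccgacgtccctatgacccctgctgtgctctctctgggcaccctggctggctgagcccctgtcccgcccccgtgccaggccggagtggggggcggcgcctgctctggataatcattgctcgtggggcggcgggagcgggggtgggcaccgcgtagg

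GTTGCC was found in 2 of the 7 windows of the members and in 12.5% of all 32851 windows of the same length. TATAAA, the motif of the TATA box, was found in 1 of the 7 windows, that of Slc4a5, and in 13.6% of all windows. In Slc4a5 it lay in reverse orientation, in a window away from the annotated gene start. TAATCC, the core that OTX factors bind, was in none of the 7 and in 7.06% of all, and GTAAACA, a forkhead motif, was in none of the 7 and in 3.65% of all. The 4 motifs do not overlap each other in the windows shown. The window of Kl was 67.3% G and C and that of Aqp1 62.7%, against a median of 52.7% over all windows and 53.0% for Kcne2.

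Ttr was among the most abundant transcripts of these libraries. It ranked between 2 and 350 of 14225 transcripts by TPM (a level scaled for transcript length and for the library's total), and it was among the 100 highest in 27 of 30 libraries and among the 10 highest in 3. It made up 91.1% to 97.0% of the summed TPM of the 8 genes, and that sum was 0.0427% to 1.27% of the nominal total of a library. In the Saline libraries Ttr was at 3057, 1395 and 2754 TPM at E17, 3391, 2984 and 1275 at P7, and 3455, 7012 and 6509 at P20. In the MIA libraries it was at 3507, 1332 and 12126 TPM at E17, 1906, 9958 and 9977 at P7, and 4527, 3044 and 4378 at P20. At each of these ages the ranges of Saline and MIA overlapped. At P60 Ttr was at 2593, 1211 and 486 TPM in Saline + CTRL, 1341, 1786 and 1083 in MIA + CTRL, 402, 1339 and 939 in Saline + MG-REP, and 1902, 1086 and 1702 in MIA + MG-REP. By group mean the order ran from P7 MIA (7280 ± 4654 TPM, SD, n = 3) through P20 Saline (5659 ± 1925), E17 MIA (5655 ± 5709), P20 MIA (3983 ± 816), P7 Saline (2550 ± 1123), E17 Saline (2402 ± 885), P60 MIA + MG-REP (1563 ± 425), P60 Saline + CTRL (1430 ± 1070) and P60 MIA + CTRL (1403 ± 356) to P60 Saline + MG-REP (893 ± 470). Neighbours in this order lay closer than the larger of their SDs, except P20 MIA and P7 Saline, and P60 MIA + CTRL and P60 Saline + MG-REP.

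The other 7 genes were far lower on the same per-length scale. Their medians over 30 libraries were 62.3 TPM for Igfbp2, 18.5 for Clic6, 13.4 for Aqp1, 12.4 for Kcne2, 12.4 for Kl, 4.86 for Slc4a5 and 1.25 for Enpp2. Enpp2 was listed at 0 in 3 libraries, all at E17, and its median of about 13 estimated reads per library, against about 9583 for Ttr, makes it the least precise of the 8. Between their lowest and highest library the genes spanned 17.3 times (Igfbp2) to 149 times (Kl). The lowest value of 5 of the 8 genes, Ttr, Igfbp2, Clic6, Kcne2 and Slc4a5, was in replicate 1 of Saline + MG-REP at P60.

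**Figure D1:**
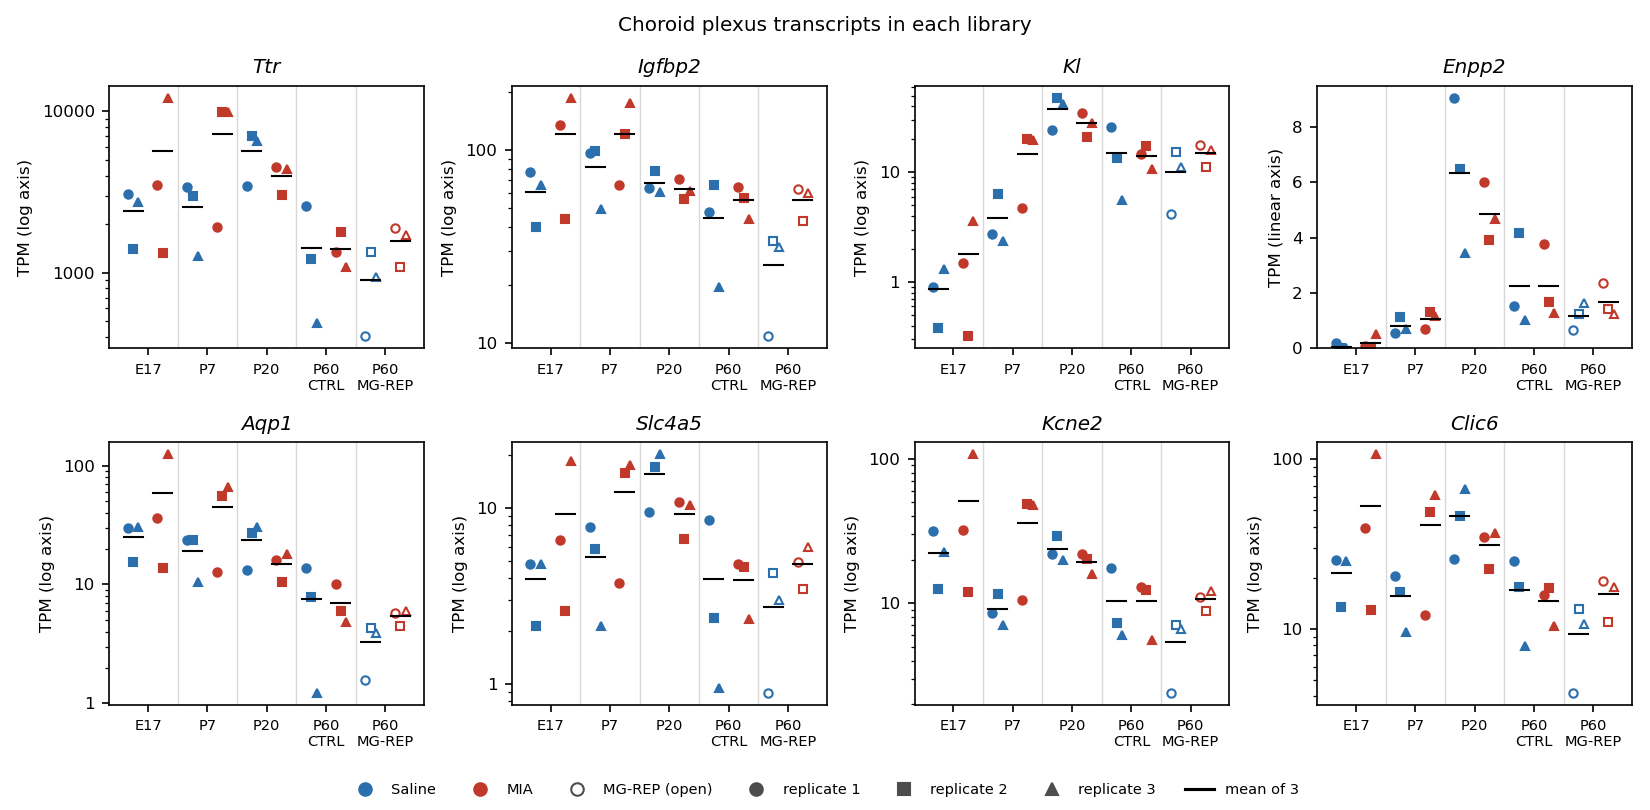
TPM of the 8 choroid plexus transcripts in each of the 30 libraries by age and postnatal treatment (x axis), on log axes except for Enpp2, which is on a linear axis because 3 libraries are at 0. Points are libraries, blue for Saline and red for MIA, open for MG-REP, with the shape giving the replicate number, and bars are means of 3 libraries. One E17 MIA library (triangle) and 2 P7 MIA libraries (square, triangle) stand above the others of their age in all 8 panels, and the remaining MIA libraries of these ages lie lower.

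At E17 and P7, 3 MIA libraries stood apart. Replicate 3 of E17 MIA was the highest of the 6 E17 libraries for all 8 genes, and replicates 2 and 3 of P7 MIA were both above the other 4 P7 libraries for all 8. For Ttr these libraries were at 12126, 9958 and 9977 TPM, whereas the remaining MIA libraries of these ages were at 3507, 1332 and 1906. For Aqp1, the 3 libraries were at 125, 55.4 and 65.7 TPM, against 36.2, 13.7 and 12.8 for the remaining MIA libraries and 10.53 to 30.18 for the Saline libraries of both ages. For Clic6, they were at 107, 48.8 and 61.7 TPM, against 39.2, 12.9 and 12.1, and 9.61 to 25.3 in Saline. The same libraries were high for other genes of the tissue: of 41 rows of 38 further choroid plexus genes, replicate 3 of E17 MIA was the highest E17 library in 34, and replicates 2 and 3 of P7 MIA were the 2 highest at P7 in 30. The summed TPM of these rows was 1302 in E17 MIA replicate 3, 1236 and 1447 in P7 MIA replicates 2 and 3, and 552 to 869 in the other 9 libraries of the 2 ages. The 3 libraries were singled out by the members, and the share of all transcripts highest in them was not counted. Summed markers of ependymal and ciliated cells (17 genes) were also highest in E17 MIA replicate 3 (332 TPM) and P7 MIA replicate 3 (334 TPM), against 187 TPM in P7 MIA replicate 2 and 157.5 to 191 in P7 Saline. Summed endothelial markers were highest in the same libraries, at 104 and 101 TPM, against at most 76.7 in the other E17 and 57.6 in the other P7 libraries. P7 MIA replicate 3 also had the highest summed neuronal (110 TPM) and astrocyte (172 TPM) markers of its age and the lowest summed microglial markers (12095 TPM). Summed markers of border macrophages (9 genes) were lowest in these replicates 3, at 1104 TPM against 1420 to 2206 in the other E17 libraries and at 1537 TPM against 2556 to 2928 in the other P7 libraries. The part of these cell types in the values was not tested, and in such bulk libraries more cells of a type and more RNA per cell cannot be told apart.

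The effect of maternal immune activation on these genes was asked at each age. No member was called by limma (moderated test on log2(TPM + 1), Benjamini-Hochberg over all transcripts) at any of the 4 ages, and the share of all transcripts called was 0% at each. At an unadjusted p under 0.05, 585 of 14225 transcripts passed at E17, 335 at P7, 457 at P20 and 256 at P60 under CTRL chow. Of the members, 0 passed that level at E17, P20 and P60, and 2 of 8 at P7, where 2.36% of all transcripts did.

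At P7, Kcne2 was at 8.52, 11.6 and 7.08 TPM in Saline and 10.6, 48.7 and 47.7 in MIA (log2 difference of 1.62 ± 0.59, SE, n = 3 per group, limma adjusted p = 1). Kl was at 2.77, 6.36 and 2.39 TPM in Saline and 4.75, 20.02 and 19.73 in MIA (log2 difference of 1.58 ± 0.53, limma adjusted p = 1). For both genes replicate 1 of MIA lay within the Saline range, and the other replicates lay above it. All 8 genes had a higher mean in MIA than in Saline at P7, with a median log2 difference of 1.05 (0.03 over all transcripts), from 0.20 for Enpp2 to 1.62 for Kcne2. Ttr differed by 1.29 ± 0.69, with a 95% confidence interval of -0.14 to 2.72.

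At E17 all 8 were again higher in MIA by their means, with a median log2 difference of 0.74 (0.10 over all transcripts). Igfbp2 was at 76.7, 39.7 and 66.1 TPM in Saline and 135, 43.9 and 187 in MIA, so that 1 MIA library lay within the Saline range and 2 lay above it (0.81 ± 0.48, limma adjusted p = 0.754). Without replicate 3 of MIA, Ttr, Kl, Kcne2, Enpp2 and Aqp1 turned lower in MIA, with Ttr at -0.073 in place of 0.76.

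At P20 the direction of the means was the opposite. All 8 were lower in MIA than in Saline, with a median log2 difference of -0.43 (-0.05 over all transcripts), and Ttr differed by -0.46 ± 0.69 (limma adjusted p = 1.00). The MIA range of Ttr, 3044 to 4527 TPM, lay across the lower end of the Saline range, 3455 to 7012. At P60 under CTRL chow the median was 0.17 (0.03 over all transcripts), with 7 of 8 higher in MIA. Averaged over the 4 ages, 8 of 8 were higher in MIA, with a median of 0.39 and no call, and 477 of 14225 transcripts passed an unadjusted p under 0.05.

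**Figure D2:**
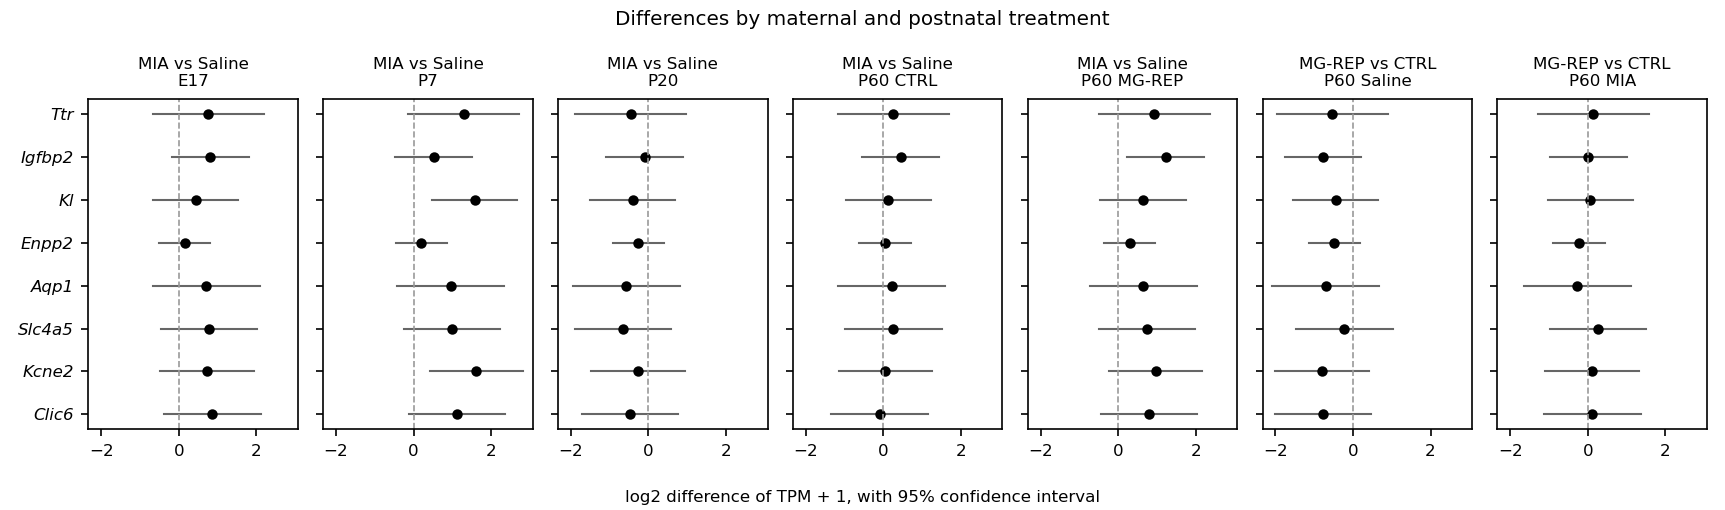
Log2 differences of TPM + 1 (x axis) with 95% confidence intervals from limma for each gene (y axis), for MIA against Saline at each age and diet and for MG-REP against CTRL in either maternal group, 3 libraries against 3. The dashed line marks no difference, and the interval lies to the right of it for Kl and Kcne2 at P7 and for Igfbp2 in MG-REP offspring, none of which passed the adjusted threshold.

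The spread between libraries of 1 group was wide for these genes, which sets what could be detected. The within-group SD of log2(TPM + 1) was 0.92 for Ttr, wider than that of 99.6% of transcripts, 0.88 for Aqp1, 0.79 for Clic6 and Slc4a5, 0.77 for Kcne2, 0.69 for Kl, 0.63 for Igfbp2 and 0.41 for Enpp2, against a median of 0.26 over all transcripts. In Ttr the highest library was 9.11 times the lowest within E17 MIA.

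Depletion and repopulation of microglia was compared at P60. In Saline offspring 26.7% of all transcripts were called between MG-REP and CTRL, with a median shift over all transcripts of -0.14 on the log2 scale, but of the members 0 were called. All 8 had a lower mean in Saline + MG-REP than in Saline + CTRL, with a median log2 difference of -0.62. Leaving out the 4 CTRL libraries that lacked Xist gave -1.47, from a single Saline + CTRL library. That library, replicate 1, held the most Ttr of its group (2593 TPM against 1211 and 486). Igfbp2 was at 47.5, 66.1 and 19.4 TPM in Saline + CTRL and 10.8, 33.9 and 31.6 in Saline + MG-REP, ranges that overlap (-0.77 ± 0.48, limma adjusted p = 0.262). Ttr differed by -0.53 ± 0.69 (limma adjusted p = 0.630), and without replicate 1 of Saline + CTRL its difference was 0.055. In MIA offspring 0.555% of all transcripts and 0 members were called. There the members' median was 0.09, with 6 of 8 higher in MG-REP, and Ttr differed by 0.15 ± 0.69, or by -0.48 with log2 Xist, a measure of sex, as a covariate. The difference between the MG-REP effects of the maternal groups was called for 10.5% of all transcripts and for 0 members.

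Among the MG-REP offspring, 22% of all transcripts and 0 members were called between MIA and Saline. All 8 had a higher mean in MIA + MG-REP, with a median log2 difference of 0.77 against 0.12 over all transcripts. Igfbp2 came closest, at 10.8, 33.9 and 31.6 TPM in Saline + MG-REP and 63.1, 43.0 and 59.8 in MIA + MG-REP, 2 ranges without overlap (1.23 ± 0.48, limma adjusted p = 0.0702). It passed the threshold when replicate 2 of Saline + MG-REP, the highest of that group for Igfbp2, was left out, with a log2 difference of 1.50. Replicate 1 of Saline + MG-REP was the lowest of its group for all 8 genes, at 10.8 TPM for Igfbp2 and 402 for Ttr. This library therefore widened each of the 8 differences. Ttr, at 402 to 1339 TPM against 1086 to 1902, differed by 0.93 ± 0.69 (limma adjusted p = 0.383).

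Age changed a few members strongly, and Kl most of all. In Saline and MIA libraries together, Kl was at 0.32 to 3.61 TPM at E17, 2.39 to 20.02 at P7, 21.01 to 47.83 at P20 and 5.55 to 25.7 at P60 under CTRL chow. From E17 to P7 it rose by 1.89 ± 0.38 on the log2 scale (n = 6 per age, limma adjusted p = 0.00161), and from P7 to P20 by 2.06 ± 0.38 (limma adjusted p = 7.48e-05). Enpp2 rose as well, from 0 to 0.52 TPM at E17 to 0.55 to 1.30 at P7 (0.77 ± 0.23, limma adjusted p = 0.0291) and 3.45 to 9.02 at P20 (1.73 ± 0.23, limma adjusted p = 1.03e-06). No library at P7 overlapped P20 in either gene. In Enpp2 the E17 and P7 libraries were parted only by 0.52 against 0.55 TPM. That gap is less than a single estimated read of Enpp2, which is 0.0792 to 0.1325 TPM. Kl and Enpp2 were the 2 members called at each step, both higher, where 6.76% of all transcripts were called higher from E17 to P7 and 21.6% from P7 to P20. When any of 7 libraries was left out in turn, the first rise of Enpp2 was no longer called, although its size stayed between 0.71 and 0.86 on the log2 scale with any library left out. The 7 were E17 Saline replicates 2 and 3, E17 MIA replicates 1 and 2, P7 Saline replicate 2 and P7 MIA replicates 2 and 3.

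None of the remaining 6 genes was called by limma from E17 to P7 or from P7 to P20 with all libraries. From P7 to P20 Ttr differed by 0.33 ± 0.49 and Clic6 by 0.68 ± 0.42, with adjusted p-values of 0.606 and 0.190 by limma. Leaving out the 3 high MIA libraries together was an alternative chosen after the values were seen. The log2 difference from P7 to P20 was then 1.27 for Slc4a5, 1.05 for Kcne2 and 1.38 for Clic6, against 0.65, 0.35 and 0.68 with all libraries. These libraries were singled out by the members' own high values, and leaving out P7 MIA replicates 2 and 3 lowers the members' P7 means. The larger differences were thus in part set by the choice. A single P7 MIA library was left in this fit, so no weight is put on its calls.

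From P20 to P60 under CTRL chow all 8 genes had a lower mean, with a median log2 difference of -1.22 (-0.02 over all transcripts). Of the 8, 4 fell, where 7.71% of all transcripts were called lower. Ttr fell by 1.87 ± 0.49 on the log2 scale, from 3044 to 7012 TPM at P20 to 486 to 2593 at P60, without overlap (n = 6 per age, limma adjusted p = 0.0142). Slc4a5 fell by 1.54 ± 0.43 (limma adjusted p = 0.0199), from 6.60 to 20.1 TPM to 0.95 to 8.54. Kl fell by 1.20 ± 0.38 (limma adjusted p = 0.0395) and Enpp2 by 1.07 ± 0.23 (limma adjusted p = 0.00335). The fall of Kl was lost with a pseudocount of 0.1 (limma adjusted p = 0.0928) and when any of 9 of the 12 libraries was left out, and that of Slc4a5 when replicate 3 of P20 Saline, Saline + CTRL or MIA + CTRL was. Aqp1 (-1.42, adjusted p = 0.0520), Clic6 (-1.25, 0.0569), Kcne2 (-1.08, 0.0936) and Igfbp2 (-0.47, 0.408) did not pass by limma. Of these, Aqp1 passed with a filter on a mean of 1 TPM (adjusted p = 0.0499) and with median-ratio scaling (0.0426), Clic6 with that scaling (0.0457) and with only the groups compared (0.0214), and Kcne2 with only the groups compared (0.0258), all by limma.

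The sexes were unevenly spread over this step. Xist, expressed from the inactive X chromosome of females, was at 172 to 193 TPM in the 6 libraries at P20, at 124 and 140 TPM in replicate 1 of Saline + CTRL and of MIA + CTRL, and at 0.14 to 0.29 TPM in the other 4 libraries of these groups. With log2 Xist as a covariate none of the 4 falls was called by limma: Ttr was at -1.22 (adjusted p = 0.395), Enpp2 at -0.82 (0.203), Slc4a5 at -0.68 (0.585) and Kl at -0.61 (0.594). None was called when the 4 libraries without Xist were left out either, with Ttr at -1.30 (limma adjusted p = 0.311), Enpp2 at -0.87 (0.0730), Slc4a5 at -0.77 (0.495) and Kl at -0.68 (0.501). The 2 P60 CTRL libraries with Xist held 2593 and 1341 TPM of Ttr, both below the 3044 to 7012 TPM of P20. The lower level at P60 and the sex of the animals were therefore only partly separable, and the part of sex was not tested further. The MG-REP libraries, at 159 to 174 TPM, all had Xist as well, so the same imbalance stood between MG-REP and CTRL. The Y-linked Ddx3y, Kdm5d, Eif2s3y and Uty summed to 0.27 to 0.59 TPM at P20. They summed to 180 to 258 TPM at E17 and 125 to 285 TPM at P7, except 0.1 TPM in P7 MIA replicate 2. Steps from E17 or P7 to P20, including those taken relative to Ttr below, carried a sex imbalance too, and its part was not tested.

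Because Ttr and its companions varied together between libraries, each gene was also expressed relative to Ttr of the same library, as TPM per 1000 TPM of Ttr, for the 6 members that were above 0 throughout. This measure was chosen after the values were seen. Differences between ages were tested by exact two-sided permutation of the mean log2 ratio over the 924 splits of 6 against 6 libraries, which allows no p below 0.00216, and adjusted over 24 tests. Of the 24, 18 passed at an adjusted p under 0.05. The ratio was not taken for other transcripts, so no share over all transcripts stands beside this count. Any transcript with a course over age unlike that of Ttr can pass. The tests also overlap, as the step from E17 to P20 spans those from E17 to P7 and from P7 to P20.

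Kl increased relative to Ttr at each step, and its libraries did not overlap between any of the 4 ages. It was at 0.240 to 0.476 TPM per 1000 TPM of Ttr at E17, 0.817 to 2.49 at P7, 6.47 to 7.66 at P20 and 9.67 to 11.4 at P60 under CTRL chow. The 3 high libraries did not depart: they were at 0.298 (E17 MIA replicate 3), 2.01 and 1.98 (P7 MIA replicates 2 and 3), within the range of their age. From E17 to P20 the ratio rose 21.3 times (log2 difference of 4.41 ± 0.16, exact permutation p = 0.00216, adjusted p = 0.00472), by 4.33 in the Saline libraries and 4.49 in the MIA libraries. The further rise to P60, 1.52 times (adjusted exact permutation p = 0.00472), was 0.03 on the log2 scale when the geometric mean of the other 5 genes took the place of Ttr (adjusted exact permutation p = 0.833). In MG-REP offspring the ratio was 9.35 to 11.8, and this range overlaps that of CTRL.

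Aqp1 went the other way. It was at 9.82 to 11.1 TPM per 1000 TPM of Ttr at E17, 5.56 to 8.26 at P7 and 3.47 to 4.68 at P20, with no overlap between these ages, and the 3 E17 MIA libraries were at 10.3 each although their Ttr ranged from 1332 to 12126 TPM. The ratio fell by 1.43 ± 0.07 on the log2 scale from E17 to P20 (adjusted exact permutation p = 0.00472). At P60 it was at 2.53 to 7.54 under CTRL chow, across the range of P20.

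Kcne2 and Clic6, the neighbours on chromosome 16, both fell relative to Ttr from E17 to P7. Kcne2 went from 8.16 to 10.4 TPM per 1000 TPM of Ttr to 2.51 to 5.55, a fall by 1.05 ± 0.18 on the log2 scale, and Clic6 from 8.29 to 11.2 to 4.90 to 7.54, a fall by 0.64 ± 0.10 (adjusted exact permutation p = 0.00472 for each). From P7 to P20 Clic6 rose by 0.39 ± 0.12 (adjusted exact permutation p = 0.0130), a rise that was not called relative to the other 5 genes, and Kcne2 differed by 0.07 ± 0.26 (adjusted exact permutation p = 0.862). Slc4a5 rose 1.48 times from E17, at 1.52 to 1.95 TPM per 1000 TPM of Ttr, to P20, at 2.17 to 3.09 (adjusted exact permutation p = 0.00472).

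Of these 6 genes Igfbp2 had the lowest correlation with Ttr within groups (r = 0.87), although over the levels that of Kl was lower. It was at 9.34 to 18.4 TPM per 1000 TPM of Ttr at P20 and at 18.3 to 54.6 at P60 under CTRL chow, a rise by 1.39 ± 0.28 on the log2 scale (adjusted exact permutation p = 0.00799). In the high libraries it was at 15.4 (E17 MIA replicate 3), 12.2 and 17.7 (P7 MIA replicates 2 and 3), below the 24.0 to 38.6 of the other 9 libraries of these ages. Between MIA and Saline the ratios of the 6 genes were compared at 5 combinations of age and diet, 30 tests by exact permutation of 3 against 3 libraries, which allows no p below 0.1, and the smallest adjusted p was 0.8.

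**Figure D3:**
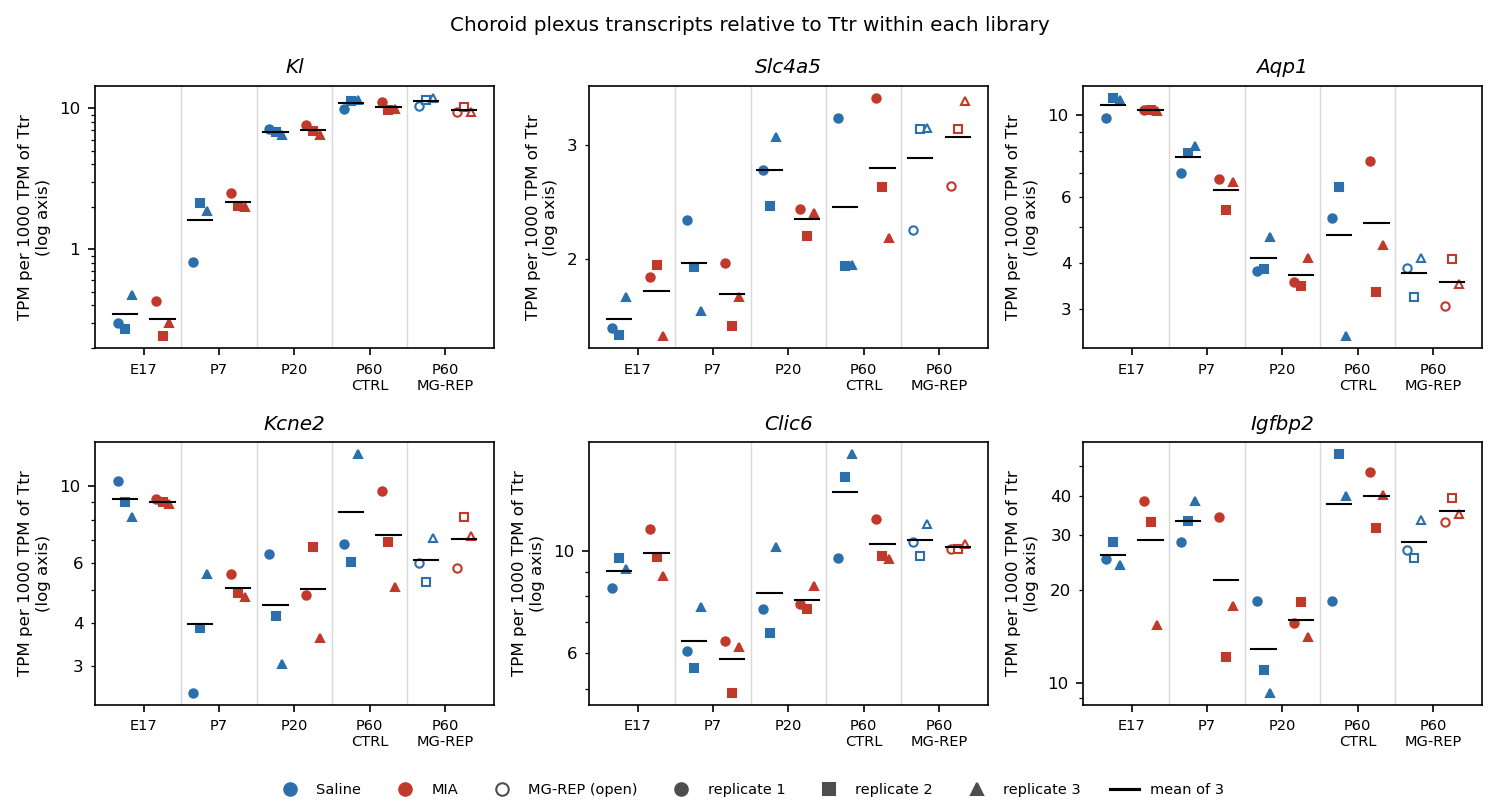
TPM of 6 choroid plexus transcripts per 1000 TPM of Ttr in the same library (log axes) by age and postnatal treatment. Points are libraries, blue for Saline and red for MIA, open for MG-REP, and bars are means of 3 libraries. The ratio of Kl climbs from 0.240 to 0.476 at E17 to 9.67 to 11.4 at P60 under CTRL chow without overlap between ages, and that of Aqp1 descends from 9.82 to 11.1 at E17 to 3.47 to 4.68 at P20.

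Within groups, 7 of the 8 genes varied as a block and Enpp2 did not. On deviations of log2(TPM + 1) from the group means over 30 libraries, which share depth and isolation, Pearson's r was 0.81 to 0.98 (median 0.91) for the 21 pairs without Enpp2 and 0.27 to 0.60 (median 0.40) for the 7 pairs with it. Of the members, Slc4a5 (r = 0.98), Clic6 (0.97), Aqp1 (0.96) and Kl (0.94) were closest to Ttr. Slc4a5 and Clic6 had the 2 highest r of all transcripts and Kl ranked 15, although over the levels themselves Kl was at r = 0.30 and rank 4919, since its level rose with age. By the levels over 30 libraries, the 10 transcripts outside the members with a mean of at least 1 TPM that were most like Ttr were Htr2c (r = 0.98), Abca4 (0.98), Prr32 (0.97), Sostdc1 (0.97), 1500015O10Rik (0.96), Vat1l (0.96), Col8a2 (0.94), Cldn1 (0.94), Tmem72 (0.93) and Slc2a12 (0.93). Of these, 8 were on the list of further choroid plexus genes, and Prr32 and Col8a2 were not. On the deviations the 10 were 1500015O10Rik (0.97), Htr2c (0.97), Atp2b3 (0.96), Abca4 (0.96), Prr32 (0.96), Kcnj13 (0.95), Msx1 (0.95), Cldn2 (0.95), Vat1l (0.95) and Col8a2 (0.94), 7 of them on that list.

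At P20 and P60 Enpp2 followed the oligodendrocyte markers Mag, Mbp, Mog, Plpp4 and Sox10 in the order of libraries in more groups than it followed Ttr. At P20 in Saline, Enpp2 was at 9.02, 6.49 and 3.45 TPM and the summed markers at 2631, 1491 and 964 TPM, whereas Ttr was lowest in the first of these libraries, at 3455 TPM. In 5 of the 6 groups at P20 and P60 the 3 libraries stood in the same order for Enpp2 as for the summed markers, and in 1 of the 6 in the same order as for Ttr. At E17 and P7, where Enpp2 was at 0 to 1.30 TPM, the order was that of the markers in none of the 4 groups and that of Ttr in E17 MIA. In E17 Saline, Enpp2 was at 0.19, 0 and 0 TPM, a tie that leaves no full order to compare. Over the 18 libraries of P20 and P60 the deviations of Enpp2 had r = 0.95 with those of the summed markers, against 0.61 with the further choroid plexus genes. Over all 30 libraries the values were 0.82 and 0.58. For Ttr they were 0.36 and 0.85 at P20 and P60, and 0.28 and 0.93 over all 30. With the other marker lists at P20 and P60, r ranged from -0.69 (microglial) to 0.78 (neuronal) for Enpp2. For Ttr it ranged from -0.29 (border macrophage) to 0.66 (neuronal). The summed oligodendrocyte markers themselves were at 34.7 to 54.4 TPM at E17, 128 to 257 at P7, 964 to 2631 at P20 and 274 to 1007 at P60 under CTRL chow, the same order of ages as Enpp2. Their part in the changes of Enpp2 was not tested.

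**Figure D4:**
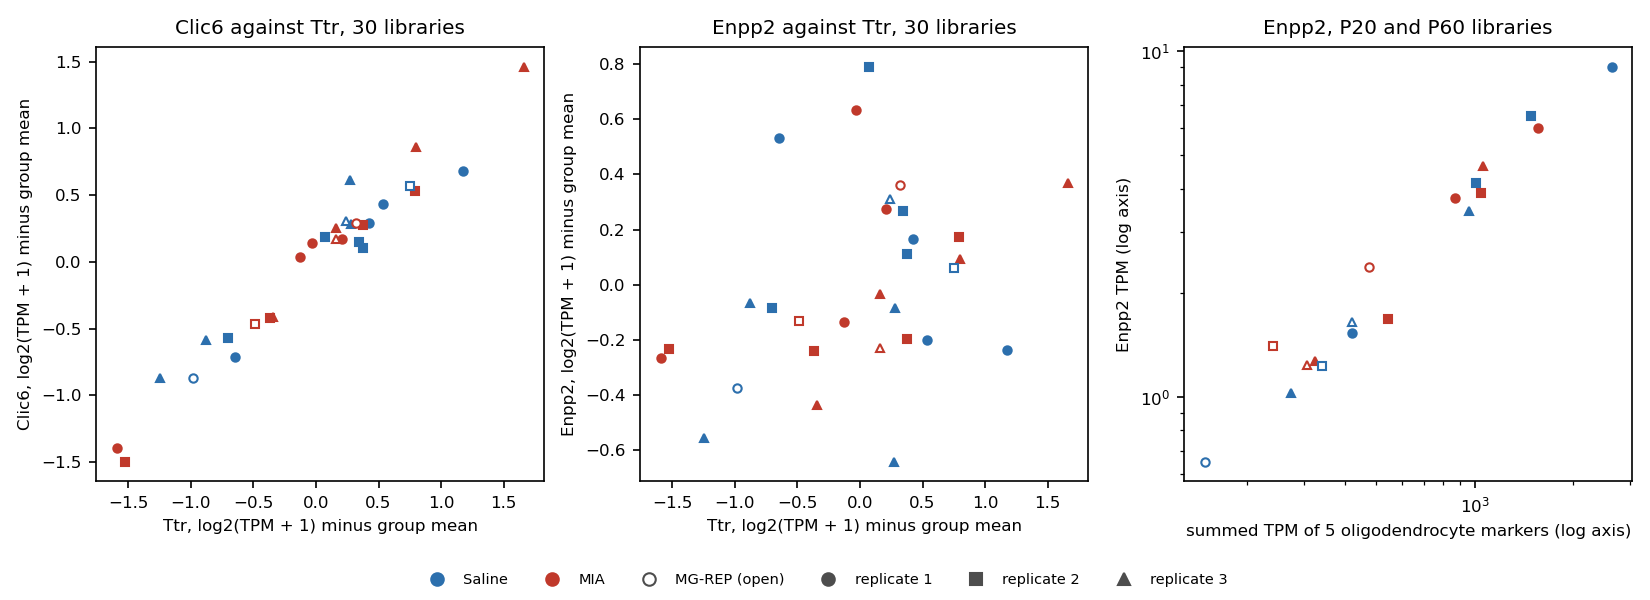
Deviations from the group mean of log2(TPM + 1) for Clic6 and for Enpp2 against Ttr (left and middle, 30 libraries), and TPM of Enpp2 against the summed TPM of 5 oligodendrocyte markers at P20 and P60 (right, 18 libraries, log axes). Points are libraries, blue for Saline and red for MIA, open for MG-REP. Clic6 lies along a line with Ttr (r = 0.97), Enpp2 does not (r = 0.34), and Enpp2 rises with the oligodendrocyte markers.

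The further choroid plexus genes were followed in the same fits. Of their 41 rows, 0 were called between MIA and Saline at any age, with medians of 0.44 at E17, 0.42 at P7, -0.36 at P20 and 0.09 at P60 on the log2 scale. Of the rows, 4 were called lower in Saline + MG-REP than in Saline + CTRL, where 14.9% of all transcripts were: Slc12a2, a sodium potassium chloride cotransporter (-1.29, limma adjusted p = 3.11e-05), Rdh5, a retinol dehydrogenase (-0.90, adjusted p = 0.0401), Tcn2, the vitamin B12 carrier transcobalamin (-0.60, adjusted p = 0.0271), and Cdhr1, a cadherin-related protein (-0.47, adjusted p = 0.0310). The calls of Rdh5, Tcn2 and Cdhr1 were lost with log2 Xist as a covariate and when single libraries were left out, among them replicate 1 of Saline + MG-REP, without which Rdh5 differed by -0.37, and that of Slc12a2 was kept in each of these fits. Slc12a2 was at 158, 205 and 169 TPM in Saline + CTRL and at 42.9, 89.5 and 93.9 in Saline + MG-REP, without overlap. In MIA + MG-REP Slc12a2 was at 164, 156 and 149 TPM, higher than in Saline + MG-REP (1.12, limma adjusted p = 0.000249), and with Perp, a desmosomal membrane protein (1.14, adjusted p = 0.0280), it was 1 of 2 rows called higher between these groups, where 10.9% of all transcripts were. It was also the row of the list called in the difference of the MG-REP effects (1.09, limma adjusted p = 0.0154), a call lost with only the 4 groups compared (adjusted p = 0.0785) and without the 4 CTRL libraries that lacked Xist (0.88, adjusted p = 0.327). The call of Perp was lost without replicate 1 of Saline + MG-REP (0.81, limma adjusted p = 0.213) and without replicate 1 or 2 of MIA + MG-REP. The level of Slc12a2 was 210 to 259 TPM in all 12 libraries of E17 and P7, the 3 high ones included.

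With age, 16 of the 41 rows fell from P20 to P60 under CTRL chow, where 7.71% of all transcripts fell, and 1 rose, where 4.24% did. The sexes were uneven over this step, and the rows called with log2 Xist as a covariate were not counted. That fit called 365 of all transcripts, against 1700 without the covariate. Among those that fell were Htr2c, the serotonin receptor 2C (-1.53, limma adjusted p = 0.0170), and the tight junction genes Cldn1 (-1.99, adjusted p = 0.00254) and Cldn2 (-1.64, adjusted p = 0.0111), and with log2 Xist as a covariate none of these 3 was called by limma, with Cldn1 at -1.50 (adjusted p = 0.190), Cldn2 at -0.95 (0.428) and Htr2c at -0.86 (0.481). From P7 to P20, 8 of 41 rose and 2 fell, where 21.6% of all transcripts rose and 29.1% fell, so that the share that rose was near that of all transcripts. From E17 to P7, 2 rose and 0 fell, where 6.76% rose and 4.03% fell. The 5 genes of the list with the highest mean were Slc12a2 (199 TPM), Ezr (113), Atp1b1 (73.4), 1500015O10Rik (58.1) and Cab39l (46.8). Of these, 1500015O10Rik, which encodes augurin, was at 126, 149 and 167 TPM in the 3 high libraries and at 14.2 to 79.2 TPM in the other 9 libraries of E17 and P7.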

How the data were processed

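Poly(A) RNA of CD11B-isolated cells was sequenced by the authors from non-stranded libraries as 40-base single-end reads, aligned to mm10 and counted with featureCounts. The deposited values are TPM of 14225 transcripts that passed the authors' expression filter, and no counts were at hand, so no count model was fitted. Without strand, reads of overlapping or antisense genes cannot be told apart. The TPM of a library sum to a nearly fixed total, so abundant transcripts lower all others slightly.

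Rows were taken by gene symbol, and coordinates and promoters from RefSeq (GRCm38.p6). Depth was estimated from the spacing of low TPM, given the lengths of 13823 transcripts. Of these low values, 72.0% to 77.5% lay within 0.2 of a whole read, where chance gives 40%.

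In R 4.3.3, limma 3.58.1 was fitted to log2(TPM + 1) of all 30 libraries, with 10 groups in 1 model, a mean-variance trend and 12 contrasts, and Benjamini-Hochberg adjustment at 0.05. A fold change on this scale understates that of low genes. Contrasts between ages average Saline and MIA. P-values measure the spread between these libraries. The fit was tested on simulated data. Replicate numbers are shared across groups. Every same-numbered pair of Saline and MIA libraries deviated together only at P20 (r = 0.238, 0.104 and 0.132). At E17 r was 0.404, 0.656 and 0, and at P60 under CTRL chow 0.203, -0.166 and 0.634, so single pairs there deviated together more strongly. At P7 r was 0.131, -0.11 and -0.013. The number was used as a block only as an alternative.

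The members, the lists of marker genes and the tests were chosen with earlier results of these data known. The genes named are all members, further choroid plexus genes called in a treatment contrast or among the 5 highest, and the 10 most like Ttr. Htr2c, Cldn1 and Cldn2 in the age comparison were chosen after their values were seen. Of the lists, rows were found for 38 of 51 choroid plexus symbols, 17 of 18 ependymal, 11 of 12 stromal and 9 of 10 border macrophage symbols. They were found for 2 of 9 erythroid, 3 of 5 neuronal, 5 of 6 oligodendrocyte, 5 of 5 astrocyte, 3 of 5 endothelial and 4 of 4 microglial symbols. Names of the same gene were counted apart, as Ecrg4 and 1500015O10Rik or Ppapdc1a and Plpp4. A further microglial marker is not reported here. Alternatives were another pseudocount, a filter, another scaling, only the groups compared, the block, Xist as a covariate and libraries left out. Plots were made in matplotlib 3.10.9 (Python 3.11.15).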

Additional observations from a re-analysis of the deposited data

Results flagged for a closer look

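The effect of MG-REP differed between the maternal groups for 1496 of 14225 transcripts by the interaction term in limma, and 0 of these were members. Of the further choroid plexus genes, Slc12a2 was the row called in that test. Unlike Ttr, this gene was at a similar level in the libraries of E17 and P7, 210 to 259 TPM, those highest in Ttr included. Its log2 difference between MG-REP and CTRL was -1.29 in Saline offspring and -0.21 in MIA offspring, and these differ by 1.09 ± 0.29 (SE, 3 libraries per group, limma adjusted p = 0.0154). The call was lost in 2 of the other fits, and it was kept with log2 Xist as a covariate and with any 1 library left out, at 0.73 to 1.28. The part of sex, which was uneven between the CTRL and MG-REP libraries, and of other cell types was not tested.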

How the results depend on the processing

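Depth limits Enpp2 most, and the spread between libraries limits Ttr and its companions. No call on a member between MIA and Saline, or between MG-REP and CTRL, was gained under a pseudocount of 0.1, the filter on a mean of 1 TPM, median-ratio scaling, only the groups compared, the replicate block or log2 Xist. With the replicate block, 0 members were called at P20 and 0 at each other age between MIA and Saline, 4 from P20 to P60, and no call of a member changed. Of the further choroid plexus genes, Rdh5 (limma adjusted p = 0.0777) and Tcn2 (0.0515) were no longer called in Saline + MG-REP with the block. Same-numbered libraries at E17, P7 and P60 did not all deviate together. Median-ratio scaling moved the share of calls that were higher from 44.3% to 57.5% in MG-REP against CTRL in Saline and from 35.5% to 49.4% from P20 to P60. With only the groups compared, 1911 transcripts were called for MG-REP in Saline (3805 in the fit of all groups) and 868 from E17 to P7 (1535). With log2 Xist, 30 were called for MG-REP in MIA (79), where Ttr turned to -0.48, and 365 from P20 to P60 (1700), with 0 members. Without the P60 CTRL libraries that lacked Xist, where the lone library of each group is assumed to vary like the others, the counts were 1886, 29 and 638 for MG-REP in Saline, in MIA and their difference (3805, 79 and 1496), and 511 from P20 to P60, with 0 members, and the members' median for the difference of effects was 1.39 (0.59 with all libraries). Without the 3 high libraries, 728 transcripts and 1 member were called from E17 to P7, where Ttr turned to -0.068, and 5 members from P7 to P20, where Aqp1 turned to 0.22. Both exclusions were chosen after seeing the data, and the 3 high libraries were singled out by the members' own values. Leaving out the 3 high libraries kept a single P7 MIA library, so no weight is put on the calls of that fit. No share of all transcripts from P7 to P20 stands beside its 5 members. With all libraries, 21.6% of all transcripts were called higher at that step and 29.1% lower. Relative to the geometric mean of the other genes, Kcne2 turned to -0.15 from P7 to P20, and Clic6 to -0.024 and Aqp1 to -0.41 from P20 to P60, where Slc4a5 was called lower (-0.70, adjusted exact permutation p = 0.0111). The causes were not tested.

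With each library left out in turn, log2 differences between MIA and Saline at E17 ranged from -0.073 to 1.52 for Ttr, -0.010 to 0.89 for Kl, -0.068 to 1.46 for Kcne2, -0.035 to 0.27 for Enpp2 and -0.11 to 1.44 for Aqp1. From E17 to P7 they ranged from -0.069 to 0.73 for Ttr, -0.050 to 0.47 for Igfbp2, -0.69 to 0.052 for Clic6 and -0.64 to 0.14 for Aqp1, and from P7 to P20 from -0.071 to 0.53 for Ttr. For Ttr they ranged from -1.15 to 0.055 for MG-REP in Saline and from -0.025 to 0.39 in MIA. Relative to Ttr, Igfbp2 ranged from -0.21 to 0.16 from E17 to P7, Kcne2 from -0.090 to 0.19 from P7 to P20, and Slc4a5 from -0.10 to 0.072 from P20 to P60. Transcripts called between MIA and Saline were 0 to 1 at E17, P7 and P20. Members called were 1 to 2 from E17 to P7, 2 to 6 from P20 to P60 and 0 to 1 between MIA and Saline in MG-REP. Transcripts called ranged from 2460 to 3729 for MG-REP in Saline, 41 to 71 in MIA, 963 to 1631 for their difference and 1731 to 3141 for MIA against Saline in MG-REP, the lowest of each but the second without replicate 1 of Saline + MG-REP.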

Other observations

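Other cell types differed between the same libraries. Replicate 1 of E17 MIA held 863 TPM of the summed neuronal markers, against 106 to 223 TPM in the other 5 E17 libraries, and its Ttr of 3507 TPM was the second highest of that age. Summed markers of stromal fibroblasts were at 46.3 to 111 TPM in Saline + MG-REP, below the 138 to 167 TPM of MIA + MG-REP, and 5 of their 11 rows were called higher in MIA + MG-REP than in Saline + MG-REP by limma, where 10.9% of all transcripts were. Summed microglial markers were at 15776 to 17428 TPM in Saline + MG-REP and 22075 to 24376 TPM in MIA + MG-REP. Summed border macrophage markers were at 1234 to 2320 TPM in Saline + MG-REP and 676 to 872 TPM in MIA + MG-REP, but the members went opposite ways, with Pf4 (-2.73) and Clec12a (-2.60) lower and Cd209f (2.59) higher in MIA + MG-REP on the log2 scale, each called by limma and chosen after their values were seen. The 2 erythroid markers were at 9.82 to 21.4 TPM at E17 and at 0.39 to 5.10 TPM from P7 on. Summed astrocyte markers were at 1.31 to 12.2 TPM at E17 and 36.6 to 247 TPM from P7 on, and summed endothelial markers were at 20.9 to 104 TPM over all libraries. No explanation of these values was tested.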
